A study of Mus musculus with 19 samples.

Results

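The genes described here are Trp53, which encodes the transcription factor p53, and 8 of its transcriptional targets that act in cell cycle arrest, apoptosis and the response to damage: Mdm2, Cdkn1a, Btg2, Pmaip1, Bbc3, Sesn1, Ei24 and Ccng1. They were taken by symbol from the table of all genes, and all 9 were among the 14173 genes listed. Expression was measured by RNA sequencing of single mouse blastocysts, the last stage before implantation, with 1 library per embryo. The 9 Padi6-mutant embryos came from oocytes carrying the Padi6P620A mutation, per the series' design text, so the label describes what the mother supplied, and they are embryos that had passed the block at the 2-cell stage. The other 10 embryos carry the genotype label Control. The labels give no strain, age, litter, day or batch for either group, so embryos that share a mother cannot be told apart from independent ones, and each embryo was taken as 1 replicate.

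p53 is held at a low level in unstressed cells because the ubiquitin ligase encoded by Mdm2, itself a p53 target, marks it for degradation. When DNA damage or another stress blocks that step, p53 protein accumulates and switches on genes that stop the cell cycle, such as Cdkn1a and Btg2, or that promote apoptosis through the mitochondria, such as Pmaip1 and Bbc3. Much of this control acts on the protein, which RNA sequencing does not measure.

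p53 binds DNA at pairs of a short half-site, and sequences upstream of 4 targets whose levels differed, and of Mdm2, are shown to make plain which of them carry such letters. The 250 bases before each annotated start were searched for the p53 consensus half-site, a motif of 10 letters that reads alike on both strands, and no other motif was searched. Every letter had to match, so near matches are not marked. RefSeq sequences (GRCm38.p6, an older build than the one the submitters name) were searched for 8 of the 9 genes, taken by symbol, in 12 windows. Of these windows 6, each of a different gene, held a half-site. No window of Pmaip1 was searched, so whether it holds a half-site was not tested. Over all genes, 7.13% of 32851 such windows held one. The sequences below run 5′ to 3′ on the strand of the gene, and capitals mark the half-sites.
Cdkn1a, upstream start, chr17:29090881-29090962, plus strand: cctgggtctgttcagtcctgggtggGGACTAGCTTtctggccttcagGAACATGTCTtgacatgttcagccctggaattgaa
Mdm2, chr10:117710910-117710969, minus strand: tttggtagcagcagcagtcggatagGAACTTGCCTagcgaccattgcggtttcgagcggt
Sesn1, downstream start, chr10:41887241-41887300, plus strand: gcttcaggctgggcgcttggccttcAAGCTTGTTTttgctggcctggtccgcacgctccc
Ei24, chr9:36797335-36797369, minus strand: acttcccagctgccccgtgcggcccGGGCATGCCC
Btg2, no half-site in this window, chr1:134079156-134079405, minus strand: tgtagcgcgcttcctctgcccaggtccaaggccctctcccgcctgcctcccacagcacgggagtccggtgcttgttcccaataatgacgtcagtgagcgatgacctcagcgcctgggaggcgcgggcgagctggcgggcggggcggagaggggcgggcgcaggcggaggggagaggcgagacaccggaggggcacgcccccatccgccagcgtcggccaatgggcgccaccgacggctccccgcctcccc
In Cdkn1a the half-sites began 73 and 51 bases before the upstream start and lay within 13 bases of each other. Only 0.0639% of all windows held such a pair. The 10 letters right after the second half-site of Cdkn1a miss the motif only at their first letter, and so are not marked. In Mdm2 the half-site began 186 bases before the start, in Sesn1 173 bases and in Ei24 10 bases. Single half-sites also lay 75 bases before the start of Trp53 and 185 bases before that of Ccng1. The Btg2 window and the 3 windows of Bbc3 held none. The window before the downstream start of Cdkn1a and that before the upstream start of Sesn1 also held none. This says only that these letters are not in these windows.

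Values below are log2 of the authors' scaled count plus 1, and differences are Padi6-mutant minus Control on that scale, so that a difference of 1 is a doubling. Libraries of the groups differed in ways that touch these genes. Padi6-mutant libraries had 312 ± 191 of the listed genes at 0 and Control libraries 117 ± 76.2 (SD, n = 9 and 10; two-sided exact permutation p = 0.00692), and 4 Padi6-mutant libraries (embryos 6, 8, 9 and 10) had over 400. Short transcripts were higher relative to long ones in Padi6-mutant libraries, with Spearman's rho between transcript length and how far a library lies from each gene's mean of -0.25 ± 0.12, against 0.17 ± 0.18 in Control libraries (SD, n = 9 and 10; two-sided exact permutation p = 1.19e-04). Where the part of one read in a scaled count could be told, the library totals, in units of 1000000, were 12.1 to 30.2 counts in 8 Padi6-mutant embryos and 27.9 to 46.8 counts in 5 Control embryos, above the mean of 4.2 reads in the same unit that the labels state. Only libraries whose counts had been scaled up could give a total. None was found for Control embryos 1, 2, 3, 4 and 7 and Padi6-mutant embryo 7, so these ranges do not describe the whole groups. The transcript of Padi6, which a point mutation need not change, ranged from 2.00 (median 6.48) to 9.27 in Padi6-mutant embryos and from 3.81 (median 6.48) to 9.24 in Control embryos, and so does not check the labels. Blastocyst markers were present in both groups: 4 of 5 inner cell mass, 4 of 5 primitive endoderm and 6 of 7 trophectoderm markers were listed, and none of 8 cumulus and granulosa markers was. None of the 9 genes was at 0 in any embryo.

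Of the 9 genes, 6 passed the test at an adjusted p under 0.05, beside 26.6% of all genes (limma on all 19 libraries, Benjamini-Hochberg over 14173 genes). Cdkn1a, Btg2 and Pmaip1 were higher in Padi6-mutant embryos, 3 of 9 beside 14.6% of all genes, while Trp53, Sesn1 and Ei24 were lower, 3 of 9 beside 12.0%. Mdm2, Bbc3 and Ccng1 did not pass. The targets thus did not all move in 1 direction, and the transcript of their regulator was lower where Cdkn1a and Btg2 were higher. The median difference over all genes was -0.10.

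**Figure D1:**
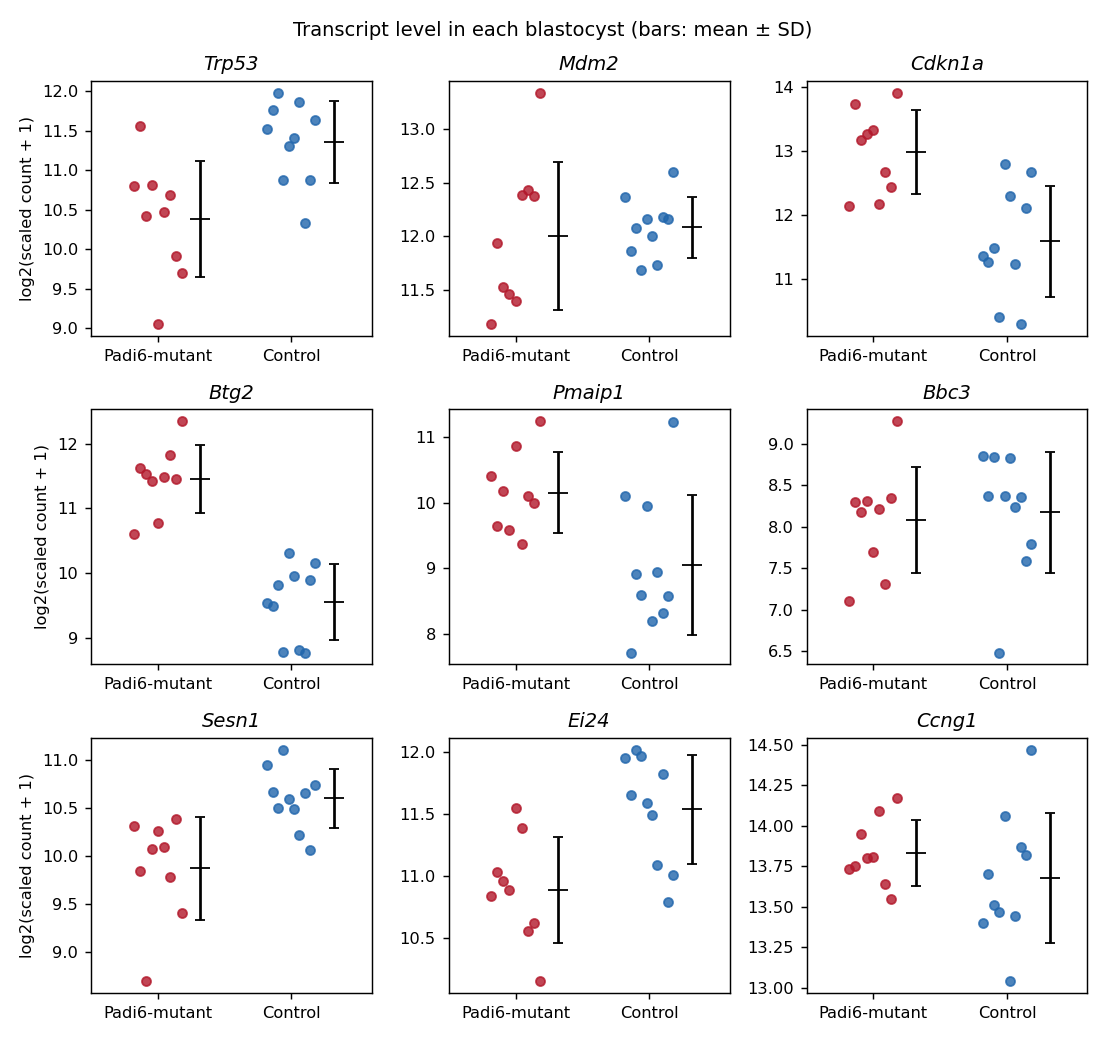
Level of each of the 9 genes in every embryo, as log2(scaled count + 1), with 9 Padi6-mutant embryos left of 10 Control embryos and the group mean ± SD drawn beside the points. Btg2 is the 1 gene whose groups do not overlap, with Padi6-mutant embryos at 10.60 or above and Control embryos at 10.31 or below.

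Trp53 itself lay between 9.05 and 11.56 in Padi6-mutant embryos (median 10.47) and between 10.33 and 11.98 in Control embryos (median 11.47). The groups overlapped: 8 of 9 Padi6-mutant embryos were below the Control median and 3 were below the lowest Control embryo, with Padi6-mutant embryo 3, at 11.56, as the exception. The mean was 10.38 ± 0.73 in Padi6-mutant embryos and 11.36 ± 0.52 in Control embryos (SD, n = 9 and 10), a difference of -0.98 (SE 0.27; 95% interval -1.54 to -0.42), or 1.97-fold lower (limma adjusted p = 0.00999). This size changed with the libraries that had many genes at 0: Trp53 averaged 9.84 in those 4 embryos, 10.81 in the other 5 Padi6-mutant embryos and 11.36 in Control embryos. Without those 4 libraries the difference was -0.54 (adjusted p = 0.158), and with gene detection as a covariate (listed genes above 0 in each library) it was -0.32 (adjusted p = 0.428), so Trp53 no longer passed in either fit. The part that gene detection plays in the result was not tested. A whole embryo also mixes inner cell mass, primitive endoderm and trophectoderm, so fewer cells of a type and less RNA per cell cannot be told apart for any gene here.

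Mdm2, the ubiquitin ligase that restrains p53, ranged from 11.18 to 13.34 in Padi6-mutant embryos (median 11.94) and from 11.69 to 12.60 in Control embryos (median 12.12). Padi6-mutant embryos lay on both sides of the Control range, 4 below its lowest embryo and 1, embryo 10, above its highest. The means were 12.01 ± 0.69 in Padi6-mutant embryos and 12.08 ± 0.28 in Control embryos (SD, n = 9 and 10), and the difference of -0.08 (SE 0.23; 95% interval -0.54 to 0.39) did not pass (limma adjusted p = 0.831). The SD in Padi6-mutant embryos was 2.47 times that in Control embryos, given as a description. The sign of the difference was not stable, with 0.03 without Padi6-mutant embryo 2. Mdm2 averaged 12.39 in the 4 Padi6-mutant embryos with over 400 genes at 0, 11.70 in the other 5 and 12.08 in Control embryos. Without those 4 libraries the difference was -0.38 (limma adjusted p = 0.198). With gene detection as a covariate it was -0.33 (limma adjusted p = 0.462).

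Among the arrest genes, Btg2, an antiproliferative cofactor that slows the passage from G1 to S phase, differed most. It ranged from 10.60 to 12.35 in Padi6-mutant embryos (median 11.48) and from 8.77 to 10.31 in Control embryos (median 9.68). Every Padi6-mutant embryo was above every Control embryo, a separation found for 2.96% of all genes. The mean was 11.45 ± 0.52 in Padi6-mutant embryos and 9.55 ± 0.58 in Control embryos (SD, n = 9 and 10), a difference of 1.90 (SE 0.25; 95% interval 1.39 to 2.41), or 3.73-fold (limma adjusted p = 5.71e-06). The call held under all 29 alternative settings run, with differences of 1.78 to 2.07.

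Cdkn1a encodes p21, the inhibitor of cyclin-dependent kinases through which p53 arrests the cell cycle. Padi6-mutant embryos lay between 12.14 and 13.91 (median 13.17) and Control embryos between 10.29 and 12.80 (median 11.42). All 9 Padi6-mutant embryos were above the Control median and 5 were above the highest Control embryo, while 3 Control embryos (5, 6 and 10) reached into the Padi6-mutant range. The mean was 12.98 ± 0.66 in Padi6-mutant embryos and 11.59 ± 0.87 in Control embryos (SD, n = 9 and 10), a difference of 1.39 (SE 0.32; 95% interval 0.73 to 2.05), or 2.62-fold (limma adjusted p = 0.00255). It passed with the 4 libraries left out (1.31, adjusted p = 0.0241) and with gene detection as a covariate (1.27, adjusted p = 0.0388). With each library's trend on transcript length and GC content removed the difference was 0.68 and missed the threshold (adjusted p = 0.0621). That fit took the length of Cdkn1a as 922 bases, from a single annotated transcript. Other transcripts of the gene were not tried.

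Ccng1 encodes cyclin G1, a long-known p53 target that acts in feedback on the MDM2 protein. It ranged from 13.55 to 14.17 in Padi6-mutant embryos (median 13.80) and from 13.04 to 14.47 in Control embryos (median 13.61). All Padi6-mutant embryos fell inside the Control range, and 8 of 9 were above the Control median. The difference of 0.15 (SE 0.16; 95% interval -0.17 to 0.48) did not pass (limma adjusted p = 0.495), and it was -0.03 after quantile normalization.

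The next genes encode pro-apoptotic BH3-only proteins. Pmaip1, which encodes NOXA, ranged from 9.37 to 11.25 in Padi6-mutant embryos (median 10.11) and from 7.71 to 11.24 in Control embryos (median 8.75). All 9 Padi6-mutant embryos were above the Control median, and 3 Control embryos (1, 5 and 10) overlapped them. The mean was 10.16 ± 0.61 in Padi6-mutant embryos and 9.06 ± 1.07 in Control embryos (SD, n = 9 and 10), a difference of 1.10 (SE 0.37; 95% interval 0.33 to 1.88), or 2.15-fold (limma adjusted p = 0.0324). This call was lost under 10 of 29 alternatives, more than any other of the 6: it was lost without any one of Control embryos 2, 4, 6 and 8 or Padi6-mutant embryos 2, 6 and 10 (adjusted p up to 0.0635), without the 4 libraries (0.79, adjusted p = 0.24) and with gene detection as a covariate (0.76, adjusted p = 0.299).

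Bbc3, which encodes PUMA, ranged from 7.11 to 9.27 in Padi6-mutant embryos (median 8.21) and from 6.48 to 8.85 in Control embryos (median 8.36). The ranges covered each other almost wholly, with 1 Padi6-mutant embryo, embryo 10, above the Control range and 1 Control embryo, embryo 4, below the Padi6-mutant range. Below the Control median were 8 of 9 Padi6-mutant embryos. The difference of -0.09 (SE 0.33; 95% interval -0.78 to 0.60) did not pass (limma adjusted p = 0.868), and its sign turned to 0.46 (adjusted p = 0.207) with the length and GC trend removed. The difference between the responses of Pmaip1 and Bbc3 was not tested.

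Sesn1, a stress-induced inhibitor of growth signalling through mTORC1, ranged from 8.69 to 10.38 in Padi6-mutant embryos (median 10.07) and from 10.06 to 11.11 in Control embryos (median 10.62). All 9 Padi6-mutant embryos were below the Control median and 8 of 10 Control embryos were above the highest Padi6-mutant embryo. The mean was 9.87 ± 0.54 in Padi6-mutant embryos and 10.60 ± 0.31 in Control embryos (SD, n = 9 and 10), a difference of -0.73 (SE 0.21; 95% interval -1.16 to -0.30), or 1.66-fold lower (limma adjusted p = 0.0121). It passed without the 4 libraries (-0.80, adjusted p = 0.0312) and missed the threshold with gene detection as a covariate at nearly the same size (-0.74, adjusted p = 0.0654).

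Ei24, a p53-induced gene whose product sits in the endoplasmic reticulum and takes part in autophagy, ranged from 10.15 to 11.55 in Padi6-mutant embryos (median 10.89) and from 10.79 to 12.02 in Control embryos (median 11.62). All 9 Padi6-mutant embryos were below the Control median, and 6 Control embryos were above the highest Padi6-mutant embryo. The mean was 10.89 ± 0.42 in Padi6-mutant embryos and 11.54 ± 0.44 in Control embryos (SD, n = 9 and 10), a difference of -0.65 (SE 0.20; 95% interval -1.06 to -0.24), or 1.57-fold lower (limma adjusted p = 0.0192). It was -0.51 both without the 4 libraries (adjusted p = 0.107) and with gene detection as a covariate (adjusted p = 0.187), past the threshold in neither fit. An annotated gene model, Gm26787, overlaps Ei24, and the Nextera XT kit does not keep strand, so reads of the overlap cannot be assigned to one of them; a processed pseudogene of Trp53 likewise shares its sequence, and neither is listed in the table.

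Of the 9 genes, then, Cdkn1a, Btg2 and Sesn1 passed without the 4 libraries with over 400 genes at 0, when 18.5% of all genes did. Cdkn1a and Btg2 passed with gene detection as a covariate, when 12.7% did. With the length and GC trend removed, Trp53, Btg2, Pmaip1, Sesn1 and Ei24 passed, when 20.8% of the 13357 genes with a known length did. Btg2 is the 1 gene of the 9 that passed in all 3 fits.

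**Figure D2:**
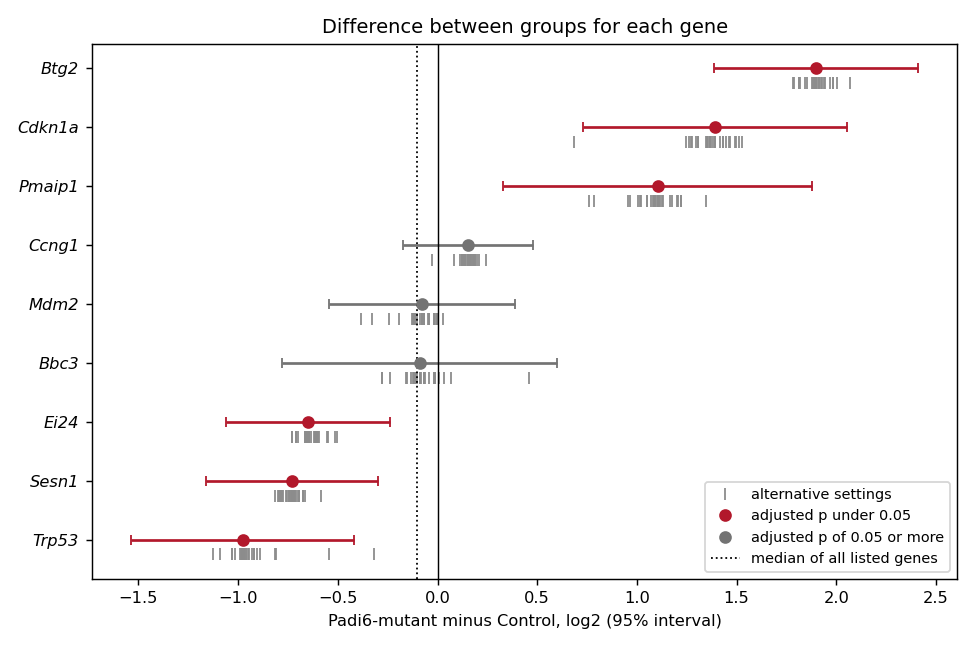
Difference, Padi6-mutant minus Control, of each of the 9 genes on the log2 scale, with its 95% interval in the fit of all 19 libraries and the values under the alternative settings as small points. The alternatives of Btg2 stay between 1.78 and 2.07, those of Trp53 reach from -1.12 to -0.32, and the interval and alternatives of Mdm2 and Bbc3 span 0.

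Levels of different genes were compared after division by transcript length in kilobases, still on the log2 scale. The length was that of a single annotated transcript per gene, 922 bases for Cdkn1a and 3512 for Ccng1. The order depends on that choice, and other transcripts were not tried. In Padi6-mutant embryos Cdkn1a was the highest at 13.10, followed by Ccng1 at 12.02, Mdm2 at 10.37, Btg2 at 10.00, Ei24 at 9.74, Trp53 at 9.56, Pmaip1 at 8.71, Sesn1 at 8.49 and Bbc3 at 7.22. Neighbours from Mdm2 down to Trp53, and Pmaip1 and Sesn1, differed by less than the larger of their SDs. In Control embryos the order began with Ccng1 at 11.87 and Cdkn1a at 11.71, which differed by less than their SD, and went on with Trp53 at 10.53, Mdm2 at 10.45, Ei24 at 10.39, Sesn1 at 9.22, Btg2 at 8.10, Pmaip1 at 7.61 and Bbc3 at 7.31. There the neighbours Trp53 and Mdm2, Mdm2 and Ei24, Btg2 and Pmaip1, and Pmaip1 and Bbc3 differed by less than the larger of their SDs.

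Whether embryos with more Trp53 transcript also had more of a target was asked within each group. None of the 16 relations (8 targets in 2 groups) passed after adjustment; the lowest adjusted p was 0.699. The strongest was Pmaip1 in Padi6-mutant embryos, where r was -0.68 (two-sided exact permutation p = 0.0437; Spearman's rho -0.60, exact p = 0.0968; r -0.56 without the 2 embryos farthest from the Trp53 median). Cdkn1a had r = -0.09 against Trp53 in Padi6-mutant embryos (exact permutation p = 0.823) and r = 0.38 in Control embryos (permutation p = 0.281). Without the 2 embryos farthest from the Trp53 median, r was -0.43 in Padi6-mutant embryos and -0.54 in Control embryos, so its sign turned in the Control group. At 9 and 10 embryos, weak relations were not detectable.

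The targets were related to each other in places. Over all pairs of the 9 genes in each group, a family of 72 relations added after the values were seen, 1 pair passed after adjustment: Cdkn1a and Btg2 in Control embryos. The order of the 10 Control embryos was the same for both genes, from embryo 8 (10.29 and 8.77) to embryo 5 (12.80 and 10.31), with r = 0.93 (permutation p = 1.7e-04, adjusted p = 0.0122) and Spearman's rho of 1 (permutation p = 1e-05, the smallest that the resamples can give; adjusted p = 7.2e-04), and r = 0.88 without the 2 embryos farthest from the Cdkn1a median. In Padi6-mutant embryos the same pair had r = 0.48 (exact permutation p = 0.197, adjusted p = 0.675) and rho = 0.48, and the difference between the groups was not tested. Control libraries also differed among themselves in the trend on transcript length. Spearman's rho with length was 0.36 in Control embryo 8 and -0.12 in Control embryo 5. It was 0.40 in Control embryo 1 and 0.23 in Control embryo 10, which lay between them in both genes. The pair was computed with that trend left in, and the part of the trend in it was not tested. In Padi6-mutant embryos Mdm2 and Btg2 had r = 0.85 (exact permutation p = 0.00212), which did not pass after adjustment (adjusted p = 0.0762), and r = 0.58 without the 2 farthest embryos.

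**Figure D3:**
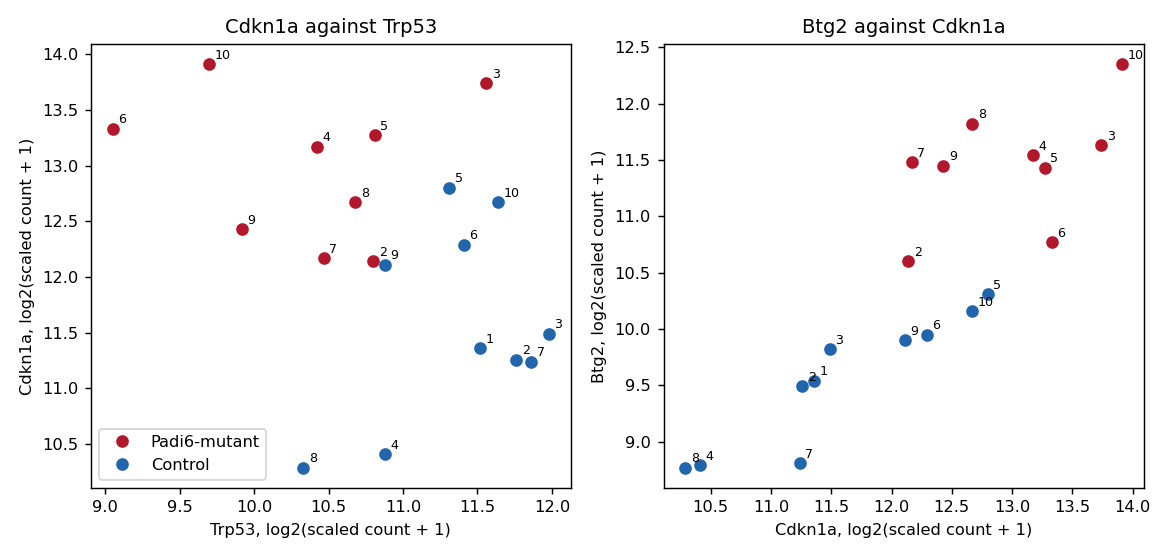
Each point is 1 embryo, numbered as in the labels, with Cdkn1a against Trp53 on the left and Btg2 against Cdkn1a on the right, both axes in log2(scaled count + 1). Trp53 and Cdkn1a show no common order within a group, while the 10 Control embryos fall in 1 order for Cdkn1a and Btg2 and every Padi6-mutant embryo lies above them in Btg2.

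**Figure D4:**
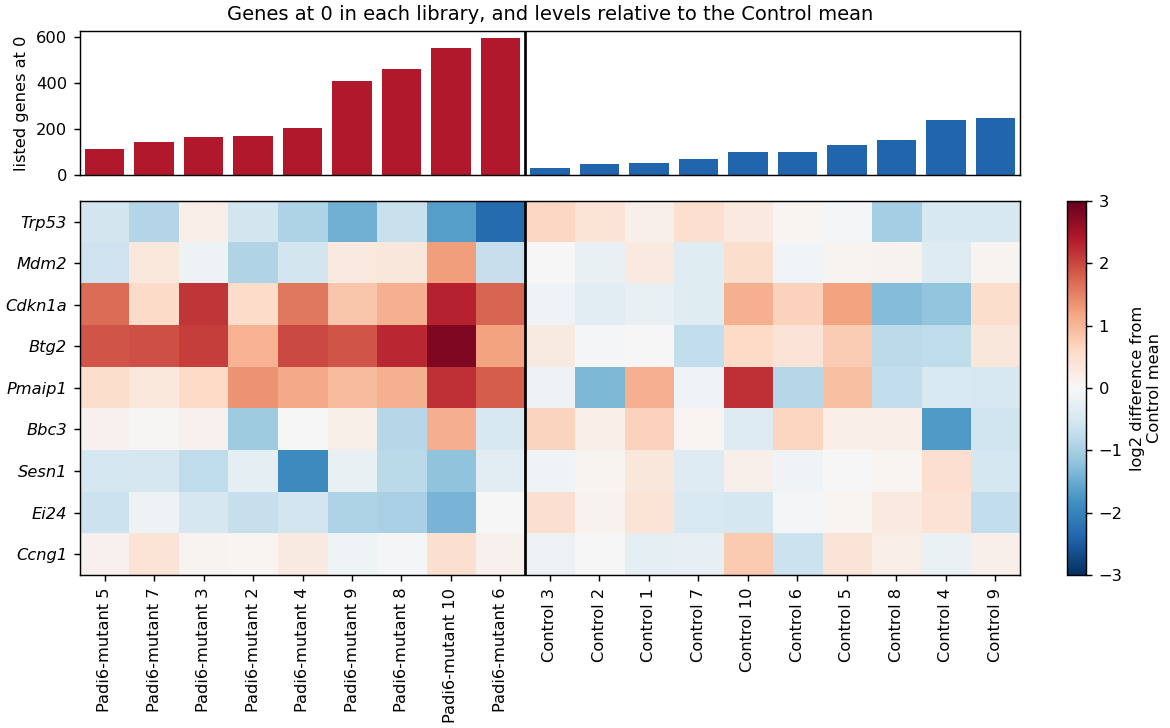
The bars count the listed genes at 0 in each library, and the colours below them give the log2 difference of each gene from its Control mean, with Padi6-mutant embryos left of Control embryos and each group ordered by its bars. Btg2 is above 0 in all 9 Padi6-mutant embryos, and Padi6-mutant embryo 10 has the highest Mdm2, Cdkn1a, Btg2, Pmaip1 and Bbc3 of its group.

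By likeness over the 19 embryos with the group means removed, a description without a test over libraries that share depth and detection differences, the genes closest to Trp53 were Ctsb (r = 0.83), Gjb5 (r = 0.83) and Bcat2 (r = 0.82). Those closest to Cdkn1a were Pla2g12a (r = 0.86), Hspb1 (r = 0.80) and Tmem234 (r = 0.80). Those closest to Mdm2 were Prps1, Timd7-ps and Cbl, with r of 0.80, 0.80 and 0.79. Ctsb, the cathepsin B gene, was lower in Padi6-mutant embryos (-0.87, limma adjusted p = 0.0132) as Trp53 was, and not past the threshold without the 4 libraries (-0.46, adjusted p = 0.215). Gjb5, a connexin gene, and Bcat2, which encodes the mitochondrial branched-chain aminotransferase, did not pass (-0.18 and -0.66). Pla2g12a (0.92, adjusted p = 0.0222) and Tmem234 (0.92, adjusted p = 0.00144) were higher in Padi6-mutant embryos as Cdkn1a was, and Hspb1, a small heat shock protein gene, did not pass (1.17, adjusted p = 0.108). Pla2g12a missed the threshold with gene detection as a covariate (0.99, limma adjusted p = 0.0753), while Tmem234 passed under all 29 alternatives.

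The other genes of the pathway were taken from 4 lists. Of 39 other p53 targets measured (Fas is not listed), 3 were higher and 6 lower in Padi6-mutant embryos, with a median difference of -0.11 beside -0.10 for all genes. These are 7.69% and 15.4% of the list, beside 14.6% higher and 12.0% lower of all genes. Rps27l averaged 15.68 ± 0.42 in Padi6-mutant embryos and 12.82 ± 0.85 in Control embryos (SD, n = 9 and 10), a difference of 2.86 (limma adjusted p = 2.31e-07). It is also a ribosomal protein gene with a short transcript, and the difference was 1.20 with the length and GC trend removed (adjusted p = 8.55e-08). Dcxr, a xylulose reductase, was higher by 1.42 (adjusted p = 4.80e-04), and by 0.85 with that trend removed. Cdip1, a pro-apoptotic target, averaged 10.01 in Padi6-mutant embryos and 10.97 in Control embryos, a difference of -0.96 (adjusted p = 0.00197). The other 6 calls were Fbxw7 on the higher side and Pidd1, Fdxr, Epha2, Psrc1 and Steap3 on the lower. With gene detection as a covariate, 2 were higher and 2 lower, when 9.23% of all genes were higher and 3.52% lower. With library quality weights 4 were higher and 12 lower, when 37.7% of all genes passed in either direction. The share of all genes by direction was not taken for that fit, so neither count has a matching share beside it.

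Of 29 regulators and cofactors of p53 (Cdkn2a is not listed), 4 were higher and 6 lower, with a median of -0.22 beside -0.10 for all genes. These are 13.8% and 20.7% of the list, beside 14.6% and 12.0% of all genes. The higher genes include Triap1 (0.69, limma adjusted p = 0.0415), which is a p53 target rather than a regulator and was counted where the list had it. The 2 strongest on the higher side were Rpl11, at 1.94 (limma adjusted p = 2.76e-05), and Rpl5, at 1.33 (adjusted p = 8.21e-04), ribosomal proteins that bind and inhibit MDM2. Removing the length and GC trend left 1.05 for Rpl11. Many ribosomal protein genes have near-identical processed copies in the genome, so counts of Rps27l, Rpl5 and Rpl11 depend on how the authors assigned shared reads. Trp53bp2, which encodes the p53-binding protein ASPP2, was lower, at -0.97 (adjusted p = 0.0022), and missed the threshold with gene detection as a covariate (adjusted p = 0.0565). That covariate left 3 genes higher and 0 lower in the list, beside 9.23% and 3.52% of all genes. Leaving out the 4 libraries left 3 higher and 2 lower, beside 11.9% and 6.64% of all genes.

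Of 25 DNA damage sensors and checkpoint kinases, 1 was higher (Nbn) and 5 lower (Atm, Chek2, Mdc1, H2ax and Parp1), with a median of -0.12 beside -0.10 for all genes. The 1 higher and 5 lower of 25 stand beside 14.6% and 12.0% of all genes. Chek2, the checkpoint kinase that phosphorylates p53 after DNA breaks, averaged 10.20 ± 0.25 in Padi6-mutant embryos and 11.11 ± 0.23 in Control embryos (SD, n = 9 and 10), a difference of -0.91 (SE 0.15; limma adjusted p = 7.77e-05) that passed under all 29 alternatives. Parp1, which senses DNA strand breaks, averaged 12.49 in Padi6-mutant embryos and 13.51 in Control embryos, a difference of -1.02 (adjusted p = 4.99e-04) and also passed in all of them. H2ax, the histone variant phosphorylated at breaks, averaged 11.23 in Padi6-mutant embryos and 12.30 in Control embryos, a difference of -1.07 (adjusted p = 0.0112), but -0.62 without the 4 libraries (adjusted p = 0.217) and -0.47 with gene detection as a covariate (adjusted p = 0.35). Without those 4 libraries, 0 genes were higher and 2 lower in the list, beside 11.9% and 6.64% of all genes. Leaving out 1 embryo at a time gave 0 to 1 higher and 3 to 6 lower.

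Of 12 measured relatives of the 9 genes (Trp63, Trp73, Btg4, Hrk and Bik are not listed), 3 were higher and 1 lower, with a median of 0.01 beside -0.10 for all genes. The 3 and 1 of 12 stand beside 14.6% and 12.0% of all genes. Bad, another BH3-only gene, was higher by 1.05 (limma adjusted p = 0.00257), and missed the threshold with gene detection as a covariate (0.80, adjusted p = 0.0718). Ccng2, the relative of Ccng1, was higher by 2.16 (adjusted p = 0.0248), but not past the threshold without the 4 libraries (1.59, adjusted p = 0.199), and Cdkn1b was the other gene on that side. Bmf was lower, at -2.78 (adjusted p = 0.0325), a call lost in 15 of 28 alternatives. It averaged 3.62 ± 2.90 in Padi6-mutant embryos and 6.40 ± 1.30 in Control embryos (SD, n = 9 and 10), and the difference was -1.63 with a pseudocount of 10 and -1.60 without the 4 libraries (adjusted p = 0.239). With gene detection as a covariate, none of the 12 passed.

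**Figure D5:**
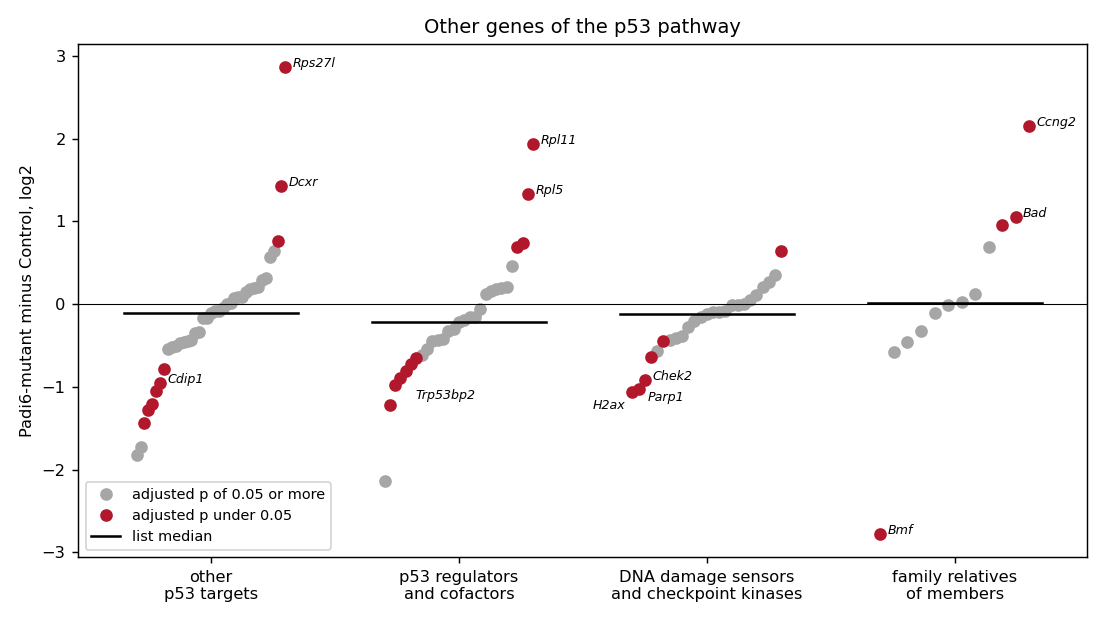
Difference, Padi6-mutant minus Control, on the log2 scale for every measured gene of the 4 lists, ordered within each list, with red points at an adjusted p under 0.05 and a bar at the list's median. The medians lie between -0.22 and 0.01, and Rps27l stands at 2.86. Bmf, at -2.78 here, was at -1.63 with a pseudocount of 10.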

How the data were processed

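Polyadenylated RNA of 19 single blastocysts was sequenced, out of 20 libraries that the labels' protocols say were pooled. Per those protocols RNA and DNA were separated by the G&T protocol, cDNA was amplified with 17 PCR cycles and Nextera XT libraries were read in pairs of 75 bases. Trim Galore 0.4.4 and HISAT2 2.1.0 are named in the submitters' processing notes, with the build GRCm39; the counting tool and annotation are not given in the sources used here. The authors deposited log2 values of scaled counts plus 1 for 14173 genes, and every value taken back from the log2 scale lay within 1.96e-07 of a whole number. The name given to the table says upper-quartile scaling. Whether these embryos were cultured for outgrowth before sequencing is not stated.

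Groups were compared with limma 3.58.1 (lmFit, eBayes with a trend) under R 4.3.3, fitted to the log2 values as deposited, two-sided, adjusted by Benjamini-Hochberg over all genes at a threshold of 0.05; the exact permutation test used all 92378 splits. On simulated data of 14173 genes, 65 of 100 genes changed by 1 log2 unit and 97 of 100 changed by 2 were recovered, with 9 false calls. The simulation drew independent normal noise with each gene's SD and changed only genes above the median level. It held no difference of gene detection or length trend between groups, so it does not give the error rate of the real comparison. Lengths and GC content came from GENCODE M21 for 13357 genes (94.2%), and lowess trends used a span of 0.3. Each gene was given a single transcript, the shortest of those marked as principal. Where none was marked, the longest was used, protein-coding ones first. Permutation tests over 10 embryos drew 100000 resamples. P-values measure the spread between embryos and may be too small if embryos share a litter. The genes described and the lists were chosen with earlier results of these data known, and named genes were all 9 genes, up to 3 genes per list with the smallest adjusted p, and 3 genes most like each of Trp53, Cdkn1a and Mdm2. Other genes of the lists are named as calls without full values. The 29 alternatives left out each embryo in turn or the 4 libraries, added a replicate block, gene detection or library quality weights, or changed the scaling (quantile, median), the pseudocount (10), the genes tested, the length and GC trend or the test.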

Additional observations from a re-analysis of the deposited data

Results flagged for a closer look

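In 60 groups of embryos (30 genes named by rule, in each genotype), 3 held an embryo set apart from the rest of its group by a gap beyond Dixon's 95% limit, and chance gives about 1 in 20. Bad was 9.06 in Padi6-mutant embryo 7, where the nearest of the other Padi6-mutant embryos was 9.85. Chek2 was 11.69 in Control embryo 1, where the nearest of the other Control embryos was 11.23. Ccng2 was 1.00 in Control embryo 7, where the nearest was 4.58 and the median of the group 5.43. None of the 9 genes of the report had such an embryo in either group.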

How the results depend on the processing

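The number of genes past the threshold was 3765, and 1807 with gene detection as a covariate. Of the 9 genes, 6 passed, against 2 with that covariate and 3 when the 4 libraries with most genes at 0 were left out; leaving out 1 embryo at a time gave 5 to 6 of the 9 genes and 3035 to 4288 genes. The number of relations of Trp53 to a target that passed was 0 throughout. Signs turned for differences that had not passed: Mdm2 was 0.0038 with the length and GC trend removed and -0.24 to 0.027 with 1 embryo left out, positive without Padi6-mutant embryo 2. Bbc3 was 0.070 with the covariate, 0.46 with the trend removed and -0.28 to 0.031 with 1 embryo left out, positive without Padi6-mutant embryo 2 or 8. Ccng1 was -0.028 after quantile normalization. Gjb5 was 0.83 with the covariate, 0.085 with library quality weights, -0.32 to 0.21 with 1 embryo left out (positive without Padi6-mutant embryo 6) and 0.52 without the 4 libraries. The causes were not tested.

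The numbers in the labels did not pair embryos: over 9 pairs the correlation of same-numbered embryos was -0.07 to 0.15, and 1 embryo pair had its own number as its best. With the replicate number as a block, 5 of the 9 genes passed (Sesn1 -0.69, adjusted p = 0.0767) and the number of genes past the threshold was 2528. The exact permutation test also gave 5 of the 9 genes, with Pmaip1 at an adjusted p of 0.0585. Totals could be told in 13 libraries, and the part of depth in the values of low genes such as Bmf was not tested.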

Other observations

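Markers of the cell types in the blastocyst were summed on the scale of scaled counts. The sum of the 4 listed inner cell mass markers was 11061 to 33208 in Padi6-mutant embryos and 22577 to 53872 in Control embryos, with 1 of the 4 called lower. The sum of the 4 primitive endoderm markers was 8555 to 13372 in Padi6-mutant embryos and 9137 to 38128 in Control embryos, with 3 of the 4 called lower. The 6 trophectoderm markers summed to 102921 to 473778 in Padi6-mutant embryos and 212125 to 396668 in Control embryos, with 0 called by limma. Of all genes, 12.0% were called lower and 14.6% higher. The part of the marker genes in the differences of Trp53 and its targets was not tested.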
